A study of Homo sapiens with 6 samples.

Results

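SMARCA2, SMARCA4, SMARCB1, SMARCC1, SMARCC2, SMARCD1, SMARCE1, ARID1A, ARID1B and PBRM1 encode subunits of the SWI/SNF chromatin remodelling complexes, and their RNA levels were examined here in T98G, a human glioblastoma cell line. The genes were chosen by name, as the rows of the authors' spike-in normalised table that carry these symbols, and all 10 were found among its 23030 genes. The cells had been infected with lentivirus that delivered a short hairpin RNA, either a control hairpin (shControl) or a hairpin against the kinase DYRK1A (shDYRK1A), selected with puromycin and left to recover without it, so that both groups carried virus and had seen the drug. The sources used here name no cloning step, and each group is therefore read as a selected population of 1 cell line. The study describes 1 hairpin against DYRK1A for this comparison, so loss of DYRK1A and other effects of that hairpin cannot be told apart here. Another hairpin was used in the study's RT-qPCR of selected ribosomal protein genes, not of the genes read here. To each sample of equally many T98G cells a fixed number of Kc167 cells, a Drosophila line, had been added, whose RNA gave an external scale. There were 3 RNA-Seq libraries per group, lettered 1A, 1B and 1C, and since the labels do not say that they came from separate cultures, p-values measure only the spread between these libraries.

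SWI/SNF complexes use the energy of ATP hydrolysis to slide or evict nucleosomes, and thereby open promoters and enhancers to transcription factors. Each complex holds a single ATPase, SMARCA4 or SMARCA2, with SMARCC and SMARCD subunits, joined in BAF and PBAF by SMARCB1 and SMARCE1, and is completed by subunits that define its class: ARID1A or ARID1B in canonical BAF, PBRM1 with ARID2, BRD7 and PHF10 in PBAF, and BRD9 with BICRA or BICRAL in the non-canonical form. Several of these genes, ARID1A, SMARCA4, SMARCB1 and PBRM1 among them, are recurrently mutated tumour suppressors.

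The promoter sequences were looked at first, because a palindromic promoter element has been associated with DYRK1A in this study. The element, TCTCGCGAGA, reads the same on both strands, and it was searched in the RefSeq promoters of GRCh38.p14, each 300 bases long with 250 bases before the start of transcription and 50 after it. It was present in 149 of 35116 promoters (0.424%). The table had 14 entries for 8 of the 10 genes, none for SMARCC1 or SMARCC2, and no entry held the whole element. Identical letters were counted here, whereas the study classed its motif by the p-value of a match, so its own criterion was not applied. The windows closest to it matched 6 to 8 of its 10 bases, 8 or more in 1 of the 14 entries (7.98% of all promoters) and 7 or more in 7 of the 14 (51.2% of all promoters). The lines give that window with 10 bases on each side for the genes that the comparisons turn on, with capitals marking the bases shared with the element. The ARID1B window is shown because it was the closest. A match of this kind describes letters and not a binding site.
PBRM1: gggcacgcagTgTCGCGcGgagcagggatc
ARID1A: ccaagccgcagCTgGCGAGgggaggcaggg
ARID1B: cccggctgggTCcCGCGAGgctgcgccggg
SMARCA4: gcgggcgggcgCgCGCGcGAggcttcccct
SMARCD1: gggggcgcccgCTCaCGcGgcctctctatt
SMARCE1: atcaccgcatctTCaCtAGAaggttagttt
The PBRM1 window lies at chr3:52685933-52685962 on the minus strand and the ARID1A window at chr1:26695837-26695866 on the plus strand. That of ARID1B, with 8 bases matched, is at chr6:156777242-156777271, that of SMARCA4 at chr19:10961024-10961053 and that of SMARCD1 at chr12:50085113-50085142, all on the plus strand, and that of SMARCE1 at chr17:40647924-40647953 on the minus strand. For SMARCA4, 2 windows of this promoter matched equally well, with 7 bases, and for SMARCD1 and SMARCE1 8 windows did, with 6 bases, of which the one nearest the 5′ end is printed.

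The libraries held 33708297 to 42154438 gene counts (shDYRK1A 1B the fewest, shControl 1B the most). Divided by the authors' spike-in size factors, these totals became 40116360 to 48090252 for the shControl libraries and 31230657 to 36658657 for those of shDYRK1A, so total human counts per spike-in were lower in every knockdown library. Equal cell numbers had been mixed, but if counting or mixing left fewer cells in a bulk sample, that and less RNA per cell cannot be told apart here. Library shDYRK1A 1B stood apart, with 15.6% of its reads unmapped against 8.44 to 11.9% in the other libraries. Of the glial markers, VIM and CD44 were abundant, with at least 51922 counts in every library, whereas GFAP, SOX2, S100B and FABP7 had at most 4 counts in any library. Immune and endothelial markers had at most 22 counts. The neuronal markers RBFOX3, STMN2 and NEFL had at most 3, although SNAP25 had 189 to 473. The marker lists also held NES, SOX9, OLIG2 and ALDH1L1 (glial) and SYT1 and SYP (neuronal), whose counts are not given here. DYRK1A itself, the target of the hairpin, had normalised read counts of 2227, 2234 and 1895 in shControl and 1482, 1056 and 1285 in shDYRK1A, with no overlap between groups. Its log2 fold change was -0.73 ± 0.15 (SE), that is, 60.2% of the control level (adjusted p = 5.33e-06, edgeR's quasi-likelihood test with Benjamini-Hochberg adjustment over the 9697 genes tested). Adjusted p-values of single genes come from this test throughout, over the genes kept in the fit concerned. Scaled to the human genes by TMM, a scale described further on, DYRK1A fell by 0.34 ± 0.06, to 79.3% of control (adjusted p = 0.000591).

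Most SWI/SNF genes gave less RNA per spike-in after the knockdown, to about the extent seen over all genes, with PBRM1 far below and SMARCD1 and SMARCE1 well above that average. All 10 genes passed the filter on low values. Of these, 7 fell at an adjusted p below 0.05 (SMARCA2, SMARCB1, SMARCC1, SMARCC2, ARID1A, ARID1B and PBRM1) and 0 rose, while 63.4% of all genes tested fell, so the count is close to the background. All 10 log2 fold changes were negative, so 0 rose at an unadjusted p below 0.05 as well, and 0 with the DESeq2 Wald test. Only PBRM1 passed the fold threshold of the study, a log2 fold change below -0.7, which 14.3% of all genes passed. The groups did not overlap for the same 7 genes, against 63.6% of all genes. The median log2 fold change of the 10 genes was -0.41, beside -0.40 over all genes tested. Without library shDYRK1A 1B the number that fell was 4, with SMARCB1, SMARCC1 and SMARCC2 losing their call, and the share of all genes that fell was 48.2%.

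**Figure D1:**
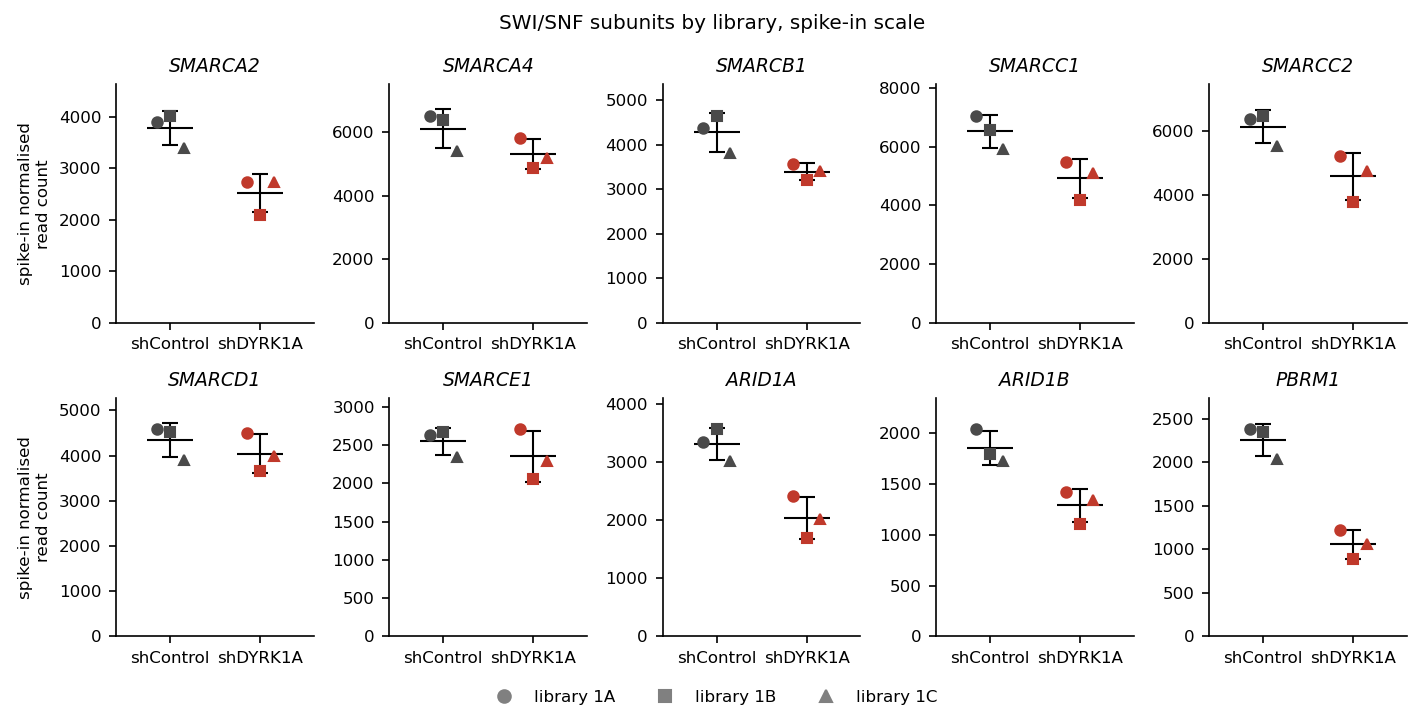
Spike-in normalised read counts (y axes, from 0) of the 10 SWI/SNF genes in each library of shControl (grey) and shDYRK1A (red); symbols mark the library letter, and bars show the mean ± SD of 3 libraries. PBRM1 separates furthest, with 2040 to 2380 in shControl and 889 to 1224 in shDYRK1A, while SMARCA4, SMARCD1 and SMARCE1 overlap.

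The spike-in scale moves all genes of a library together. Library 1C had the lowest value of the shControl libraries for all 10 genes and library 1B the lowest of the shDYRK1A libraries for all 10. A second reading, scaled to the human genes themselves by TMM, asks whether each subunit kept its place among the other transcripts. It shifts the median of all genes from -0.40 to 0.00, and the split of calls from 6145 lower and 105 higher to 2769 lower and 2652 higher. On this scale 3 subunits fell (PBRM1, ARID1A and SMARCA2) where 28.6% of all genes did, and 3 rose (SMARCD1, SMARCE1 and SMARCA4) where 27.3% did. The same genes were those whose groups did not overlap, which held for 32.5% of all genes in the lower direction and for 30.7% in the higher. Standard errors of the log2 fold changes were 0.14 to 0.15 with the spike-in and 0.04 to 0.07 with TMM.

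**Figure D2:**
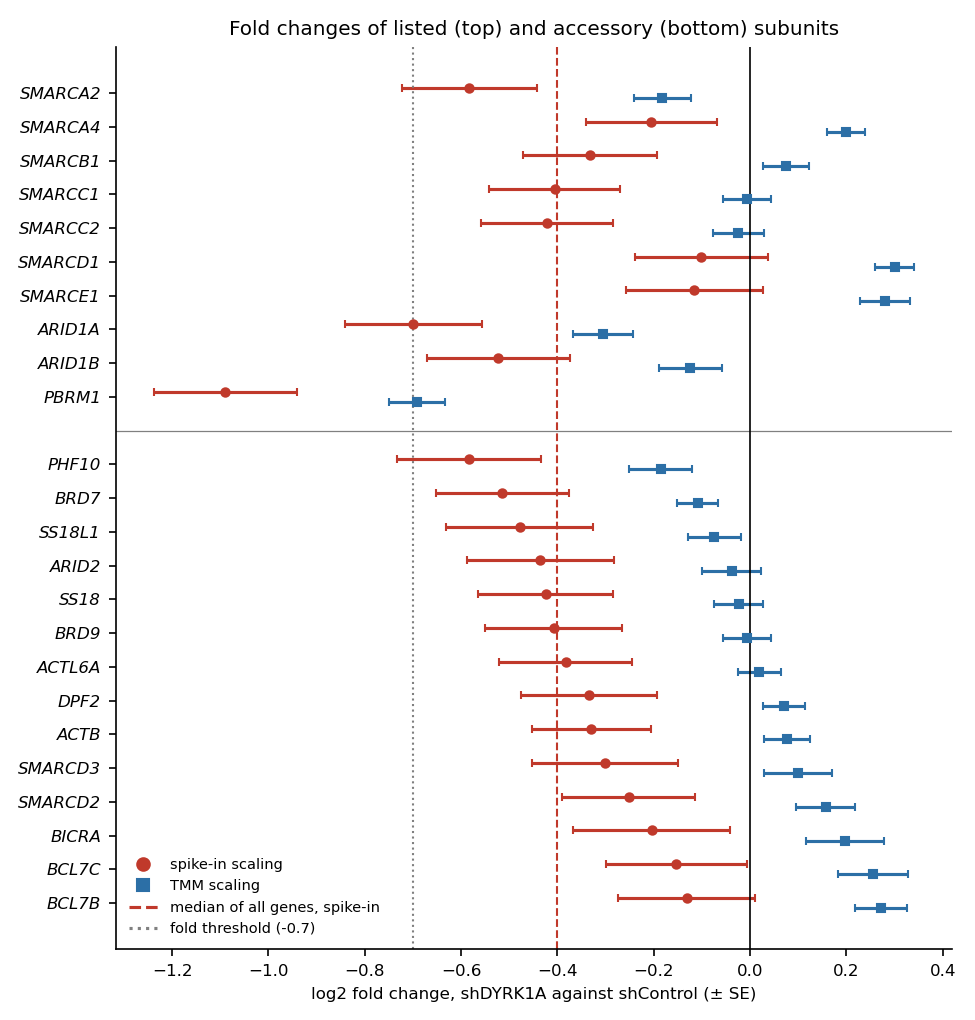
Log2 fold change of shDYRK1A against shControl (x axis, ± SE) for the 10 listed subunits (top) and the 14 accessory subunits that passed the filter (bottom), with spike-in scaling (red circles) and TMM scaling (blue squares). The dashed line is the median of all genes with the spike-in (-0.40) and the dotted line the fold threshold (-0.7). Only PBRM1 lies beyond it with the spike-in, and no listed subunit does with TMM.

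PBRM1, the polybromo subunit that reads acetylated histones within PBAF, fell the most of the 10 genes. Its gene (ENSG00000163939) lies at chr3:52545352-52685917 on the minus strand (GRCh38, GENCODE v29, as for all gene positions here). The shControl libraries had normalised read counts of 2380, 2341 and 2040, and the shDYRK1A libraries 1224, 889 and 1063. Every knockdown library was below every control library. The log2 fold change was -1.09 ± 0.15, or 47.0% of control (adjusted p = 1.21e-11, edgeR's quasi-likelihood test), and it ranged from -1.21 to -0.98 when each library was left out in turn. Only 201 of the 9697 genes had a lower fold change (2.07%). Scaled by TMM, the counts were 1959, 1932 and 2004 against 1282, 1133 and 1229, a log2 fold change of -0.69 ± 0.06 (adjusted p = 2.39e-06, edgeR's quasi-likelihood test), so that the transcript also fell relative to the other human transcripts. Its exons overlap another gene, SMIM4 on the opposite strand, over 1.51% of their length.

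ARID1A and ARID1B, the large DNA-binding subunits that exclude one another in canonical BAF, both fell with the spike-in. ARID1A (ENSG00000117713, chr1:26693236-26782110, plus strand) had normalised read counts of 3347, 3576 and 3032 in shControl and 2421, 1692 and 2017 in shDYRK1A, again without overlap. At a log2 fold change of -0.70 ± 0.14 (61.6% of control; adjusted p = 6.99e-06, edgeR's quasi-likelihood test) it lay just short of the fold threshold. It passed it without library shControl 1C (-0.76) or without shDYRK1A 1A (-0.84), which made 2 subunits past the threshold in place of 1. With TMM it fell by 0.30 ± 0.06 on the log2 scale (adjusted p = 0.00151). ARID1B (ENSG00000049618, chr6:156776020-157210779, plus strand) had 2038, 1790 and 1722 in shControl against 1417, 1106 and 1338 in shDYRK1A. It decreased to 69.6% of control (log2 fold change -0.52 ± 0.15; adjusted p = 0.00124), whereas with TMM its groups overlapped and the change of -0.12 ± 0.07 did not pass the test (adjusted p = 0.124), although it did without shControl 1B (-0.19; adjusted p = 0.0329).

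Of the ATPases, SMARCA2 fell and SMARCA4 did not pass the test with the spike-in, and their ratio is compared further on. SMARCA2 (ENSG00000080503, chr9:1980290-2193624, plus strand) had normalised read counts of 3904, 4019 and 3394 in shControl and 2732, 2098 and 2726 in shDYRK1A. All of the knockdown libraries were lower, with a log2 fold change of -0.58 ± 0.14 and 66.8% of the control level (adjusted p = 0.000152, edgeR's quasi-likelihood test). With TMM it still fell, by 0.18 ± 0.06 (adjusted p = 0.0205), a call that was lost without shControl 1B (adjusted p = 0.0532), shControl 1C (0.0789) or shDYRK1A 1A (0.0634). SMARCA4 (ENSG00000127616, chr19:10960825-11079426, plus strand), the paralogous ATPase, had 6511, 6386 and 5400 against 5802, 4877 and 5194, and these groups overlapped. Its log2 fold change with the spike-in was -0.20 ± 0.14 (adjusted p = 0.168). It passed the test without shControl 1C (adjusted p = 0.0259). With TMM it rose by 0.20 ± 0.04, from counts of 5360, 5269 and 5305 to 6078, 6214 and 6010 (adjusted p = 0.00116), and remained called without each library in turn.

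Within the core, the scaffold pair SMARCC1 and SMARCC2, around which the complex assembles, followed the average of all genes. SMARCC1 (ENSG00000173473, chr3:47585272-47782106, minus strand) had normalised read counts of 7062, 6581 and 5940 in shControl and 5477, 4182 and 5120 in shDYRK1A, 75.5% of control (log2 fold change -0.41 ± 0.14; adjusted p = 0.00618). The call was lost without shControl 1A (adjusted p = 0.0758) or shDYRK1A 1B (0.0703). SMARCC2 (ENSG00000139613, chr12:56162983-56189567, minus strand) had 6388, 6490 and 5553 against 5219, 3788 and 4752, 74.7% of control (log2 fold change -0.42 ± 0.14; adjusted p = 0.00457), a call lost without shDYRK1A 1B (adjusted p = 0.0700). Both genes fell without overlap between groups on the spike-in scale. With TMM the groups of both overlapped, with log2 fold changes of -0.01 ± 0.05 and -0.02 ± 0.05. SMARCB1 (ENSG00000099956, chr22:23786931-23838008, plus strand), the core subunit that contacts the nucleosome's acidic patch, had 4383, 4651 and 3803 against 3575, 3203 and 3413. These groups were separate, and the gene fell to 79.4% of control (log2 fold change -0.33 ± 0.14; adjusted p = 0.0281). Of the 7 falls it was the least secure, since the adjusted p was 0.0828 to 0.174 without shControl 1A, shControl 1B, shDYRK1A 1B or shDYRK1A 1C, each left out on its own. With TMM its value was 0.07 ± 0.05 (adjusted p = 0.209). DERL3, on the opposite strand, shares 17.7% of its exonic bases. For SMARCC2, MYL6 on the opposite strand shares 6.01%.

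SMARCD1 and SMARCE1, core subunits without catalytic activity, did not pass the test with the spike-in and rose with TMM. SMARCD1 (ENSG00000066117, chr12:50084972-50100712, plus strand), which links transcription factors to the complex, had normalised read counts of 4588, 4522 and 3915 in shControl and 4496, 3659 and 3987 in shDYRK1A. The groups overlapped and the log2 fold change was -0.10 ± 0.14 (adjusted p = 0.511), higher than in 87.8% of all genes tested. Scaled by TMM it had 3778, 3731 and 3846 against 4711, 4662 and 4612, so it rose by 0.30 ± 0.04 (adjusted p = 8.86e-05, edgeR's quasi-likelihood test). SMARCE1 (ENSG00000073584, chr17:40624962-40648864, minus strand), a subunit with an HMG domain that binds DNA, had 2628, 2669 and 2349 against 2708, 2059 and 2288 with the spike-in, also overlapping (log2 fold change -0.12 ± 0.14; adjusted p = 0.463). With TMM it had 2164, 2202 and 2308 against 2837, 2623 and 2647, a rise of 0.28 ± 0.05 (adjusted p = 0.000759). Both TMM calls held without each library in turn. Counts of SMARCE1 are uncertain, because 7 annotated pseudogenes carry its name and AC073508.2 on the same strand shares 19.8% of its exonic bases.

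**Figure D3:**
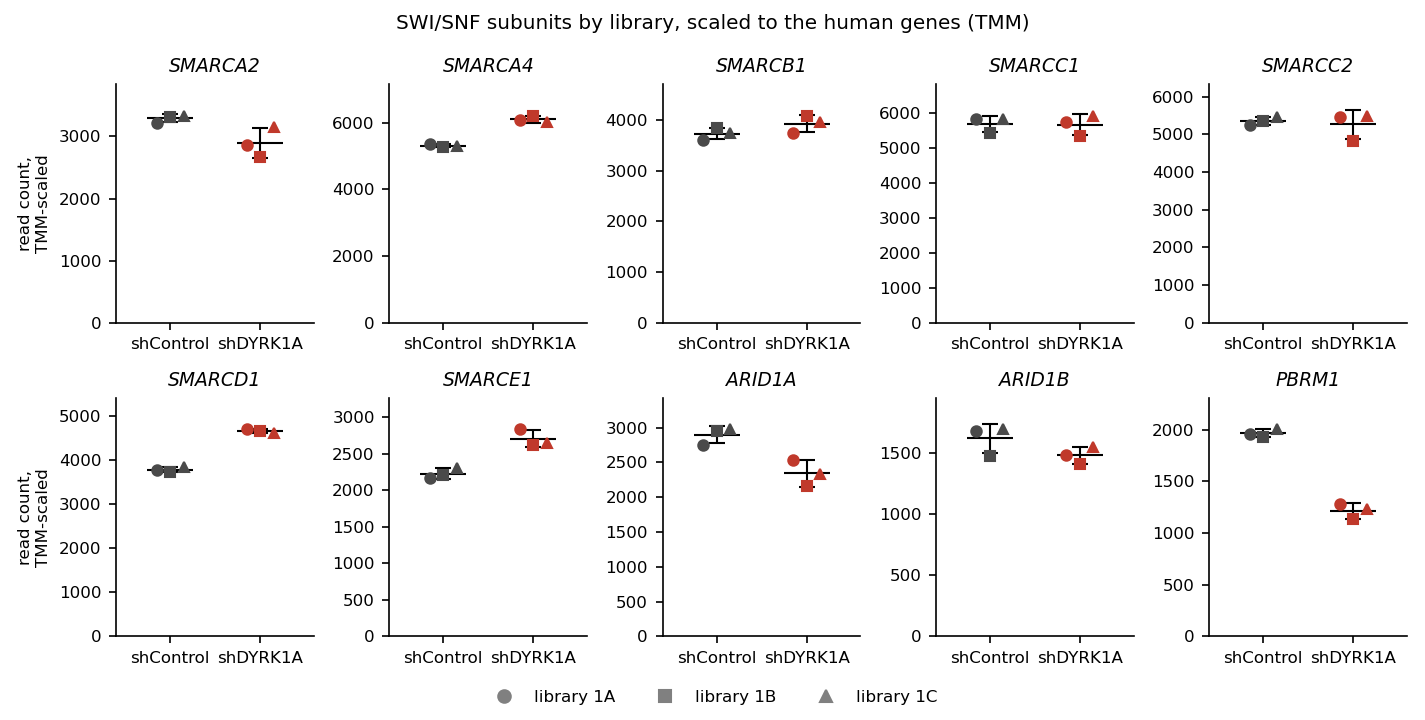
Read counts scaled to the human genes by TMM (y axes, from 0) for the 10 SWI/SNF genes in each library of shControl (grey) and shDYRK1A (red), with the mean ± SD of 3 libraries. PBRM1, ARID1A and SMARCA2 lie lower and SMARCA4, SMARCD1 and SMARCE1 higher in shDYRK1A without overlap, whereas the other 4 genes overlap.

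Ratios of subunits that replace one another, or that mark different classes, were then taken within each library, where any scaling cancels. For the 4 log2 ratios an exact permutation test over libraries was used (two-sided), in which 3 against 3 cannot go below p = 0.1, and adjusted over the 4. The ratio of SMARCA2 over SMARCA4 stood at -0.74, -0.67 and -0.67 in shControl and -1.09, -1.22 and -0.93 in shDYRK1A. It was lower in every knockdown library, by 0.39 on average (exact permutation p = 0.1, adjusted p = 0.2). PBRM1 over ARID1A had values of -0.49, -0.61 and -0.57 in shControl and of -0.98, -0.93 and -0.92 after the knockdown, with the groups again separate and a difference of -0.39 (exact permutation p = 0.1, adjusted p = 0.2). ARID1B over ARID1A went from -0.84 ± 0.14 (SD, n = 3) to -0.66 ± 0.10, with overlap (exact permutation p = 0.2, adjusted p = 0.267). SMARCC2 over SMARCC1 was -0.09 ± 0.06 and -0.11 ± 0.04 (exact permutation p = 0.7, adjusted p = 0.7). None of the 4 could pass a threshold of 0.05 with these numbers of libraries.

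**Figure D4:**
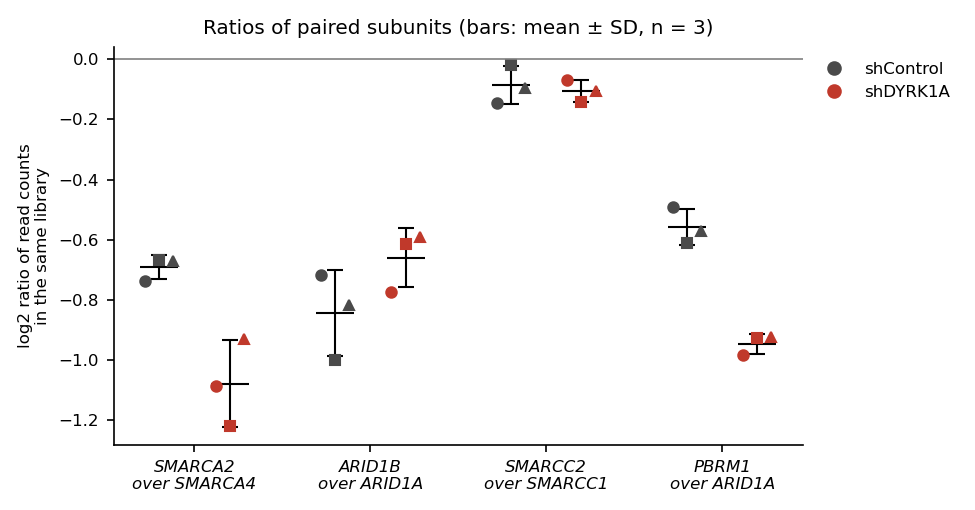
Log2 ratio of raw read counts of paired subunits within each library (y axis) for shControl (grey) and shDYRK1A (red), with the mean ± SD of 3 libraries. SMARCA2 over SMARCA4 and PBRM1 over ARID1A are lower in every shDYRK1A library, each by 0.39 on average, while the other ratios overlap.

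Per kilobase of annotated exon sequence, SMARCC1 (854 ± 73.6 normalised read counts per kilobase; SD, n = 3), SMARCD1 (845 ± 72.3) and SMARCC2 (718 ± 60.0) had the highest levels in shControl, the first and the second differing by less than their spread. SMARCA4 followed with 387 ± 38.6, apart from its neighbours by more than their SDs. Then came SMARCB1 with 259 ± 26.2, PBRM1 with 233 ± 19.3, ARID1A with 208 ± 17.1 and SMARCA2 with 203 ± 17.9, and among these 4 genes neighbours in the order differed by less than the sum of their SDs. Their order was nevertheless the same in every shControl library. SMARCE1 had 136 ± 9.32 and ARID1B the lowest level, 41.4 ± 3.72. In shDYRK1A, PBRM1 went to 110 ± 17.3, below ARID1A at 128 ± 22.9 and SMARCA2 at 135 ± 19.6, and it was below both genes in every shDYRK1A library. The order between genes depends on the length used. Divided by the longest annotated transcript instead of all exons, SMARCC2 came first at 1438 per kilobase in shControl, ahead of SMARCD1 (1187), SMARCA4 (1053) and SMARCC1 (1024), while ARID1B stayed last at 171. By that length PBRM1 (300) was already below ARID1A (387) and SMARCA2 (534) in shControl.

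Accessory subunits of the same complexes were read next. Of 21 genes, 14 passed the filter, and 9 of them fell with the spike-in at an adjusted p below 0.05, none beyond the fold threshold, while 0 rose (median log2 fold change -0.36, beside -0.40 over all genes). Of all genes tested, 63.4% fell and 14.3% passed the fold threshold, so the count of 9 is close to the background. All 14 fold changes were negative, so 0 rose at an unadjusted p below 0.05 as well. The 9 became 3 without shControl 1A or shControl 1B, and 4 without shDYRK1A 1B or shDYRK1A 1C, fits in which 41.4, 43.5, 48.2 and 44.0% of all genes fell. The lowest were PHF10 and BRD7, both specific to PBAF, and SS18L1, the neural paralogue of SS18. PHF10, a PHD finger protein, had normalised read counts of 1860, 1908 and 1532 in shControl and 1407, 976 and 1152 in shDYRK1A (log2 fold change -0.58 ± 0.15; adjusted p = 0.000348, edgeR's quasi-likelihood test). BRD7, a bromodomain protein, had 5408, 5138 and 4348 against 3807, 3208 and 3412 (-0.51 ± 0.14; adjusted p = 0.000669), although ADCY7 and AC007493.2 on the opposite strand share 42.4% of its exonic bases. SS18L1 had 1418, 1446 and 1151 against 1083, 852 and 946 (-0.48 ± 0.15; adjusted p = 0.00406). ARID2, which takes the place of ARID1A in PBAF, also fell (-0.44 ± 0.15; adjusted p = 0.00917). With TMM, PHF10 (-0.19 ± 0.07; adjusted p = 0.0303) and BRD7 (-0.11 ± 0.04; adjusted p = 0.0469) passed the test and ARID2 did not (-0.04 ± 0.06; adjusted p = 0.623). PHF10 and BRD7 were the only 2 of the 14 that fell with TMM, where 28.6% of all genes did. With median-of-ratios scaling 1 accessory subunit fell, where 28.0% of all genes did. TMM fits without each library are not given here for the accessory subunits.

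At the other end stood BCL7B, BCL7C and BICRA, none of which passed the test with the spike-in. BCL7B, a BAF subunit of little known function, had 2714, 2667 and 2339 in shControl and 2554, 2269 and 2221 in shDYRK1A (-0.13 ± 0.14; adjusted p = 0.403). BCL7C had 1886, 2012 and 1595 against 1803, 1662 and 1474 (-0.15 ± 0.15; adjusted p = 0.342), although MIR762HG and MIR762 on the opposite strand share 13.2% of its exonic bases. BICRA, which scaffolds the non-canonical complex, had 583, 664 and 498 against 584, 459 and 471 (-0.20 ± 0.16; adjusted p = 0.255). With TMM, BCL7B (0.27 ± 0.05; adjusted p = 0.00126), BCL7C (0.25 ± 0.07; adjusted p = 0.0112) and SMARCD2 (0.16 ± 0.06; adjusted p = 0.0464), a paralogue of SMARCD1, rose, where 27.3% of all genes did. SMARCD2 had TMM-scaled counts of 3730, 3501 and 3638 in shControl and 3869, 4461 and 3794 in shDYRK1A, with library 1B the highest. The log2 fold changes with the spike-in lay between -0.44 and -0.25 for ARID2, SS18, BRD9, ACTL6A, DPF2, ACTB, SMARCD3 and SMARCD2, of which SMARCD2 and SMARCD3 did not pass the test. Below the filter were BICRAL, DPF1 and BCL7A, with 135 to 335 counts per library, and ACTL6B, DPF3, BCL11A and BCL11B, with at most 16. ACTL6B, the actin-related subunit of neuronal BAF, had 1 count in 1 library and 0 in the others.

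Lists of genes of other chromatin remodelling complexes, and of Polycomb repressive complex 2, were read from the same fit for comparison. Every tested gene of these lists had a negative fold change, so that 0 rose at an unadjusted p below 0.05 as well as at an adjusted one, and 0 with the DESeq2 Wald test. Of the genes of ISWI complexes, which space nucleosomes, 6 of 10 tested fell and 0 rose (median log2 fold change -0.40), from POLE3 at -1.01 ± 0.14 (adjusted p = 2.28e-11) to SMARCA1 at -0.10 ± 0.14 (adjusted p = 0.488). Of the CHD and NuRD genes, 15 of 19 fell and 0 rose (median -0.39), from CHD7 at -0.89 ± 0.16 (adjusted p = 1.63e-07) to MBD3 at -0.02 ± 0.14 (adjusted p = 0.893). Of the INO80, SRCAP and EP400 genes, which exchange histone variants, 14 of 20 fell and 0 rose (median -0.39), from UCHL5 at -0.80 ± 0.14 (adjusted p = 2.99e-07) to ZNHIT1 at -0.05 ± 0.14 (adjusted p = 0.762). Polycomb repressive complex 2, whose silencing SWI/SNF opposes, had 7 of 9 genes lower and 0 higher (median -0.54), from its methyltransferase EZH2 at -0.76 ± 0.14 (adjusted p = 7.26e-07) to the paralogue EZH1 at -0.09 ± 0.15 (adjusted p = 0.609). Against the 63.4% of all genes that fell, these counts were of the same order, and no difference between the lists was tested. Without shControl 1A, shControl 1B, shDYRK1A 1B or shDYRK1A 1C, the CHD and NuRD count was 8, and the INO80, SRCAP and EP400 count was 5, 5, 9 and 7 in that order, where 41.4, 43.5, 48.2 and 44.0% of all genes fell. With TMM, 3 ISWI genes fell and 1 rose, 4 CHD and NuRD genes fell and 5 rose, 2 INO80, SRCAP and EP400 genes fell and 5 rose, and 4 Polycomb genes fell and 1 rose, beside 28.6% of all genes lower and 27.3% higher.

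**Figure D5:**
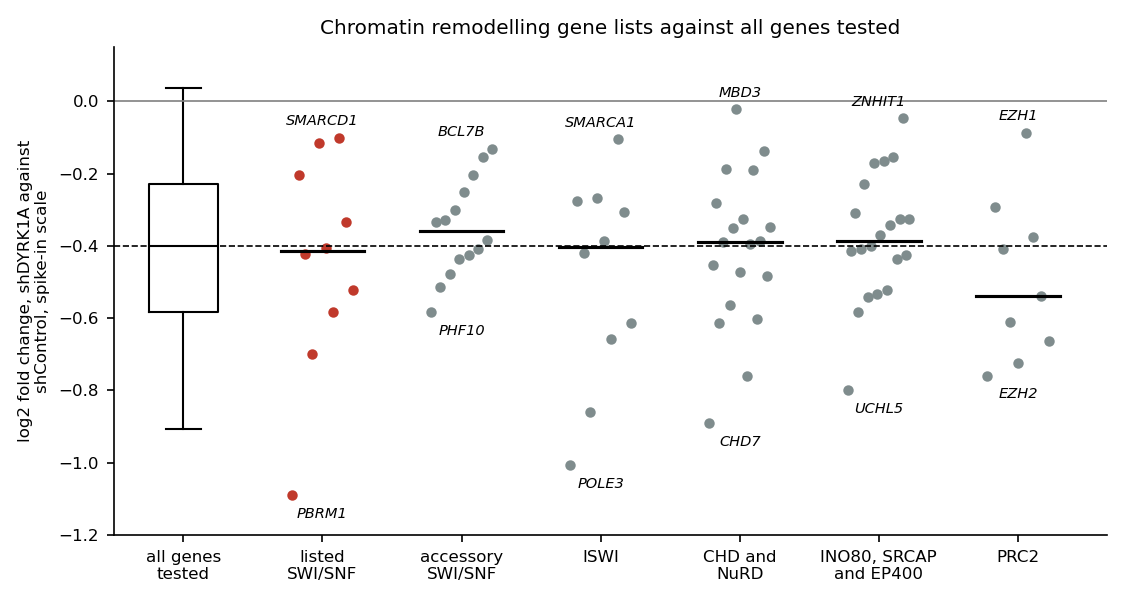
Log2 fold change of shDYRK1A against shControl with the spike-in (y axis) for the tested genes of each list (points, with the median as a bar) beside all 9697 genes tested (box with median and quartiles, whiskers at the 5th and 95th percentiles; dashed line at their median of -0.40). Medians of the lists lie between -0.54 for Polycomb repressive complex 2 and -0.36 for the accessory subunits, and PBRM1 (-1.09) is the lowest of the genes drawn as points.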

How the data were processed

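RNA was sequenced from 6 libraries of T98G cells, 3 per group, grouped by the sample titles. The authors deposited raw gene counts per library for 58174 human genes, made from stranded poly(A) libraries with STAR against hg38, per the labels and the study's methods (the STAR version, the annotation and the strand used in counting are not given in the sources used here). They also deposited a normalised table (signal), in which each column was the raw counts divided by 1 constant per library. These constants, taken from the Drosophila reads by the authors, were recovered and used as size factors, since fly genes are not among the rows used here. The planned design had named this replacement. A further deposited table holds the authors' own comparison and was not used. Per-sample columns matching no sample numbered 0. Coordinates of 95.8% of the 23030 genes equalled GENCODE v29.

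Genes with a mean normalised CPM above 10 were kept (9697). Differential expression was tested with edgeR 4.0.16 (quasi-likelihood, robust; R 4.3.3), with Benjamini-Hochberg adjustment over all genes kept, at 0.05 and, for the fold threshold, a log2 fold change beyond 0.7 in either direction. SE is the log2 fold change over the square root of F. The fit recovered 93% of 200 genes changed in simulated counts of 9697 genes. These were changed by 0.7 or 1 on the log2 scale in either direction, and 10 of the unchanged genes passed. Smaller changes, like those of most subunits, and a shift of most genes were not simulated. Ratios used raw counts plus 0.5 and exact permutation (scipy 1.17.1). Other settings tried were scaling by TMM or by median of ratios, DESeq2 1.42.0, other filters, thresholds of 0.5 and 1, a replicate block, a pseudocount of 10, another gene length and fits without each library. TMM fits without each library were added after seeing the data. The genes and lists were chosen with earlier results of these data known. Named genes were all 10 subunits, DYRK1A, every accessory subunit tested (the 3 lowest and 3 highest in every library) and the lowest and highest of each other list. Library totals of 33708297 to 42154438 counts set the precision.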

Additional observations from a re-analysis of the deposited data

How the results depend on the processing

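With TMM or median-of-ratios scaling, the number of SWI/SNF subunits that fell went from 7 to 3 with either, those that rose from 0 to 3 with either, and those past the fold threshold from 1 to 0 with either. Their median log2 fold change went from -0.41 to -0.016 (TMM) and -0.013 (median of ratios), and the accessory subunits that fell from 9 to 2 and 1. Both scalings set the median of all genes near 0 by construction. The share of all genes that fell went from 63.4% to 28.6% (TMM) and 28.0% (median of ratios). The share that rose went from 1.08% to 27.3% and 27.9%. The signs of SMARCA4 (0.20 and 0.20), SMARCB1 (0.074 and 0.077), SMARCD1 (0.30 and 0.30) and SMARCE1 (0.28 and 0.28) were reversed under TMM and median of ratios. A fold threshold of 0.5 gave 4 subunits and one of 1 gave 1, and the shares of all genes past these thresholds are not given here. Without each library in turn, the subunits that fell were 4 to 8, those past the fold threshold 1 to 2, their median -0.51 to -0.30 and the accessory subunits that fell 3 to 11. The share of all genes that fell ranged from 41.4 to 77.6% in the same fits. In those fits the difference of the log2 ratio SMARCC2 over SMARCC1 ranged from -0.048 to 0.014, changing sign without shControl 1B. Under TMM the fits without each library gave 2 to 3 subunits lower and 3 higher. Of all genes, 23.5 to 29.9% were lower and 22.2 to 29.3% higher in them.

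The replicate letters were checked for pairing: deviations of same-lettered libraries correlated at 0.15 (1A), 0.07 (1B) and 0.13 (1C), so the letters were not taken as pairs, although each library correlated best with its own letter. With the letter as a replicate block, 2 subunits passed the fold threshold, ARID1A joining at -0.71, and the genes called over the whole table were 5911 lower and 98 higher in place of 6145 and 105. No other count of subunits or of accessory subunits moved by over 1.5 times with the block. For the ratios, an exact sign-flip permutation test within letters cannot go below p = 0.25. DESeq2 and the other filter settings moved no count of subunits by over 1.5 times. DESeq2 kept each subunit's call, and SMARCB1 lost its call with no filter beyond 1 count (adjusted p = 0.0581).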
